A study of Mus musculus with 6 samples.

Results

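Cellular sterol balance was followed through 9 genes: Srebf1, Srebf2, Scap, Insig1 and Insig2, which encode the sterol-sensing transcription machinery, Stard4, which encodes a sterol carrier, and Mylip, Abca1 and Abcg1, which are induced when sterol is in excess. The genes were taken by symbol from the 26469 rows of the gene count table, and all 9 were among the 18323 genes that passed the filter on low counts. RNA was sequenced from 6 cultures of mouse spleen CD4+ T cells, 3 control and 3 mutant. The cells were sorted as naive CD4+ T cells and cultured over 36 h. The medium held anti-CD3 and anti-CD28 as activating antibodies, TGFβ (5 ng/ml), anti-IL-4 and anti-IFNγ, a mixture that drives regulatory T cell differentiation. Both groups carried the Sf3b1K700E/fl genotype, a conditional allele of the splicing factor gene Sf3b1 with the K700E change found in cancers. Control mice had no Cre and are labelled WT, while mutant mice also carried Cd4Cre, which expresses the recombinase from the Cd4 promoter in developing T cells and so acts before the cells reach the spleen. The labels used here state neither age nor strain, nor whether each library came from its own animal, so p-values measure only the spread of these samples, part of which may be technical.

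SREBP proteins are made as membrane-bound precursors in the endoplasmic reticulum. When sterol is low, the escort protein SCAP carries them to the Golgi, where proteases release the part that enters the nucleus and switches on genes of sterol synthesis and uptake. When sterol is high, the INSIG proteins hold SCAP back, and oxidised sterols activate the liver X receptors (LXRs), which switch on genes of sterol export. Activated T cells are known to turn SREBP activity up and LXR activity down as they grow and divide. Insig1, Stard4 and Srebf2 itself are SREBP targets, and Abca1, Abcg1 and Mylip are LXR targets. Srebf1 responds to both and was placed in neither group.

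The sequences upstream of 4 of these genes are shown because SREBP and LXR targets were to be compared. The motifs marked in them were chosen after looking at matches. RefSeq windows (build GRCm38.p6, which is not the authors' build) were at hand for 7 of the 9 genes, with 12 annotated starts in all. Each line gives the 250 bases upstream of a start, 5′ to 3′ on the strand of the gene.
Srebf2, chr15:82147019-82147268, plus strand: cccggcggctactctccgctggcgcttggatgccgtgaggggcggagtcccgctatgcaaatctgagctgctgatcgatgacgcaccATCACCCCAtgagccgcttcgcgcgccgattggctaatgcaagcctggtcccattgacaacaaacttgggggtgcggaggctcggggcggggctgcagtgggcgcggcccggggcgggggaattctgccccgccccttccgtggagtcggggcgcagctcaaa
Insig1, chr5:28071162-28071411, plus strand: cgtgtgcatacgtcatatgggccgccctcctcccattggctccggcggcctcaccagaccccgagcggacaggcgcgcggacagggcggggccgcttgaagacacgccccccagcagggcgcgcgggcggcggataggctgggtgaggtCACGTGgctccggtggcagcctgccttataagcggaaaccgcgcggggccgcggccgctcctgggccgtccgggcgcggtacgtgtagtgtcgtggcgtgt
Abca1, chr4:53159896-53160145, minus strand: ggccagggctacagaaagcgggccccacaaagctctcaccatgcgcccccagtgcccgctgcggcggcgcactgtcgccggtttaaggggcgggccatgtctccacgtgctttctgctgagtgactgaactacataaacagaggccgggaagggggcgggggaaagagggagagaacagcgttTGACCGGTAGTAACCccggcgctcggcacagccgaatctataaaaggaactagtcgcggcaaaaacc
Srebf1, chr11:60210472-60210721, minus strand: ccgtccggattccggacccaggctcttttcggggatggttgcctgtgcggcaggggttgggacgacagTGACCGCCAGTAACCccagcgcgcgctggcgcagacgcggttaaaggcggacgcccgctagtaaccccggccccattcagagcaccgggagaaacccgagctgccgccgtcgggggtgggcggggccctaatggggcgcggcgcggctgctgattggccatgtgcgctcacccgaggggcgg
Capitals mark ATCACNCCA, a form of the sterol regulatory element, in the Srebf2 window. In the Insig1 window they mark CACGTG, the E-box. In the Abca1 window and in that of the most downstream of 3 Srebf1 starts they mark the direct repeat DR4 that LXRs prefer, searched as GGTNA, then NNNNN, then GGTNA, and here read on the opposite strand. Both strands were searched in the 250 bases upstream of each of 32851 RefSeq starts. ATCACNCCA was present in 0.712% of windows, the overlapping form TCACNCCAC in 1.05% and in none of the 7 genes, CACGTG in 6.02% and DR4 in 0.621%. Of the 7 genes, only 1, Srebf2, had ATCACNCCA, so neither form was present upstream of Insig1. The E-box was present upstream of Insig1, Abca1 and Scap. In the Abca1 window above it is left in small letters, so the E-box does not set Insig1 apart from Abca1. CCAAT, the motif of NF-Y, was present in 5 of the 7 genes and GGGCGG, the GC box, in all 7, against 33.8% and 32.7% of windows. Genes with several starts had several windows to match. These matches are letters in a window and were not tested for binding.

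Libraries held between 33633196 and 43928723 counts. Values are CPM, the share of a library's counts scaled to a common size after TMM scaling. Sf3b1 lay between 632 and 712 CPM among controls and between 593 and 649 CPM in mutant libraries, overlapping, and a gene's count holds reads of both alleles. Control 1 had 3475 CPM of Xist, the RNA of the inactive X chromosome, against at most 0.661 CPM in the other 5 libraries. The Y chromosome genes Ddx3y, Kdm5d, Uty and Eif2s3y were at most 0.029 CPM in control 1 and at least 41.4 CPM in the other 5. Control 1 was thus the only library with a female pattern, and sex was not balanced between the groups. Mutant 1 stood apart from the other mutant libraries: 12 genes of T cell activation had a mean log2 level of -1.04 in mutant 1 when the control mean is set to 0, while mutant 2 lay at the control mean and mutant 3 at 0.10. Of the 12 activation genes, 4 (Irf4, Slc7a5, Tfrc and Myc) lay below every control in all 3 mutant libraries, and 0 lay above. Among all genes tested, 7.48% lay below in this way and 6.6% above. Without mutant 1, 3 of the 12 lay below and 2 above, against 11.9% and 12.2% of all genes. The level of 10 genes of the naive state was 1.46 in mutant 1, against 0.16 and -0.29 in mutant 2 and 3. Results for the 9 genes and for the gene lists are therefore given with and without mutant 1.

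The genes that hold and release SREBP differed widely in level. Per kilobase of annotated exon (GENCODE M21, union of exons), Insig1 was highest in control libraries at 78.0 ± 10.6 CPM per kb (SD, n = 3), followed by Srebf2 at 50.0 ± 1.70, Stard4 at 40.9 ± 3.10, Srebf1 at 20.1 ± 0.29 and Scap at 10.3 ± 1.90 CPM per kb. Down to Scap, and between Scap and Insig2, no control value of a gene overlapped those of its neighbour in this order. Insig2 at 7.45 ± 0.33, Abcg1 at 7.21 ± 0.27 and Abca1 at 6.79 ± 1.53 CPM per kb overlapped and could not be ordered. Mylip was lowest, at 1.65 ± 0.24 CPM per kb. In mutant 1 the order differed, with Abcg1 at 17.6 CPM per kb above Srebf1 at 12.1 CPM per kb, as the plot of levels per exon length shows.

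**Figure D1:**
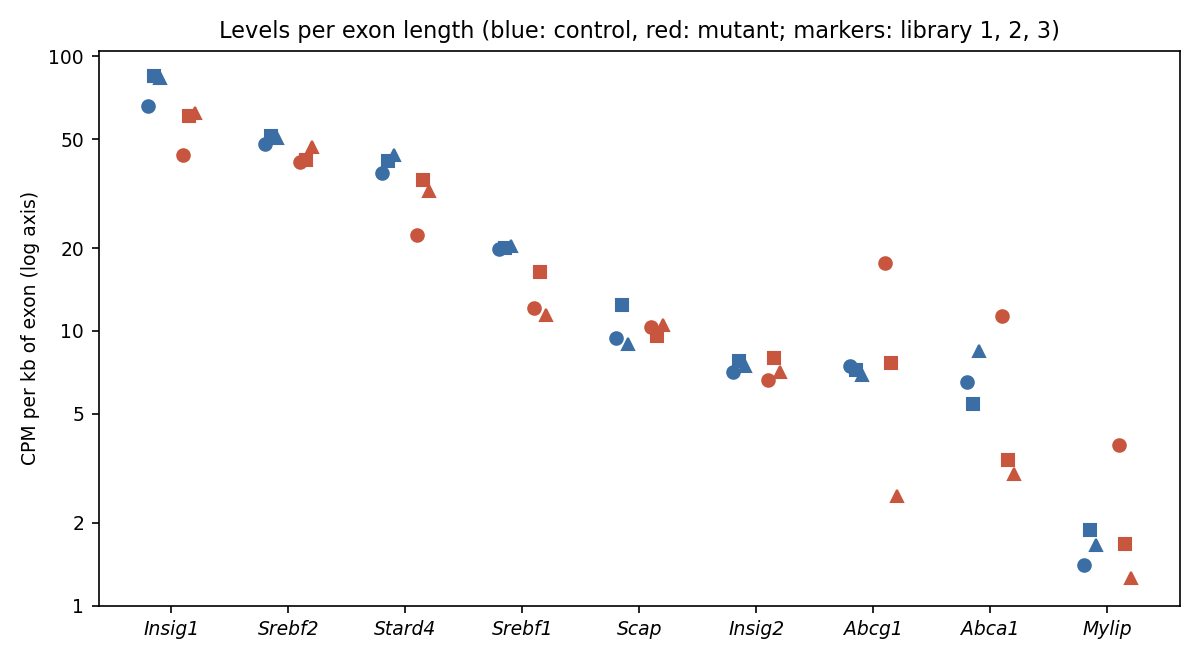
Level of each of the 9 genes in each library in CPM per kb of exon on a log axis, with control libraries in blue, mutant libraries in red, and circles, squares and triangles for libraries 1, 2 and 3 of a group. Control means run from 78.0 CPM per kb for Insig1 to 1.65 for Mylip, and the red circles of Abcg1, Abca1 and Mylip (mutant 1) lie above all other points of their gene.

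The comparison asked how the mutation bears on gene expression in cells under regulatory T cell conditions. No group carried Cre without the K700E allele, so Cre and the mutation cannot be told apart in any difference. Of the 9 genes, Srebf1, Srebf2, Insig1 and Stard4 lay below the control range in all 3 mutant libraries. Such separation was seen for 7.48% of all genes tested in this direction and for 6.6% in the other. Scap, Insig2, Mylip, Abca1 and Abcg1 overlapped between the groups. By edgeR's quasi-likelihood test none of the 9 passed an adjusted p of 0.05 (from 0.598 for Srebf1 to 0.976 for Scap), and neither did any other gene (0 of 18323, 0%). An unadjusted p under 0.05 was given to 1396 genes (7.62%), 3.48% lower and 4.14% higher, among them Srebf1, Insig1 and Stard4, all lower. DESeq2 called 100 genes (0.64% of those it gave an adjusted p) and none of the 9, and limma-voom called 0 genes, with 1297 at an unadjusted p under 0.05. Without mutant 1, Abca1 joined the genes whose groups did not overlap, making 5 of 9 where 11.9% of genes tested separated in that direction.

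**Figure D2:**
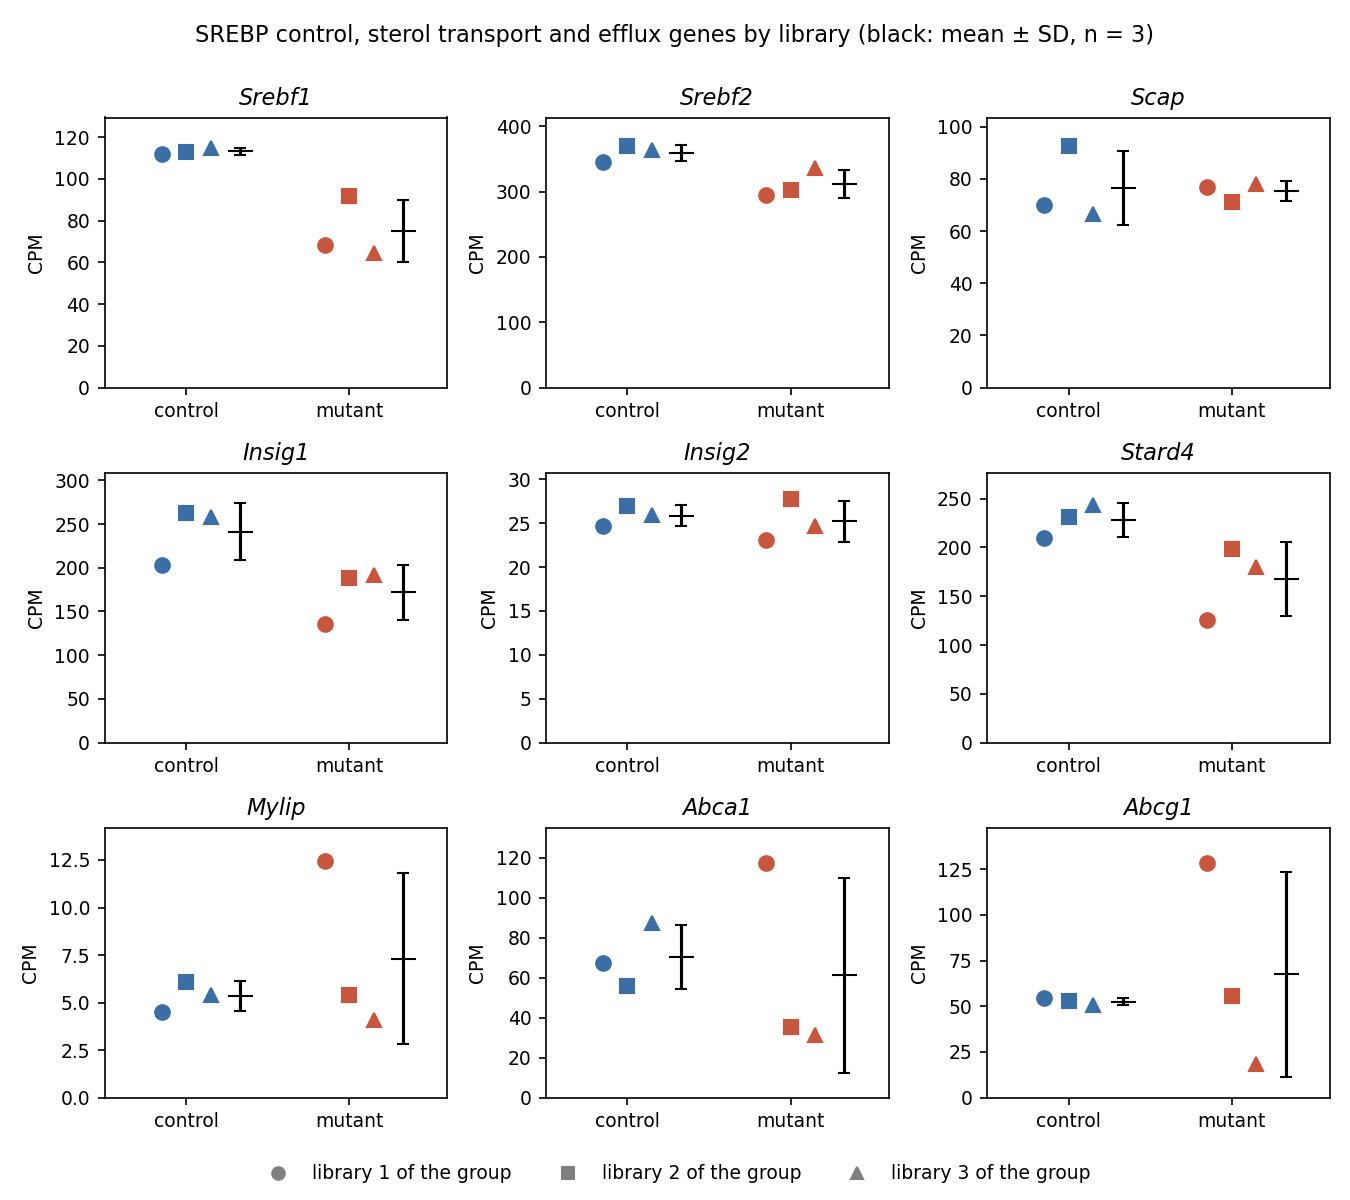
CPM of each gene in each library (axes start at 0; circles, squares and triangles are libraries 1, 2 and 3 of a group; black marks are the mean ± SD, n = 3). The control and mutant points are separate for Srebf1, Srebf2, Insig1 and Stard4, and the mutant points of Mylip, Abca1 and Abcg1 spread over 3.05-fold, 3.77-fold and 7.05-fold.

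Srebf1 (ENSMUSG00000020538), whose SREBP-1 products favour genes of fatty acid synthesis, was the steadiest of the 9 genes among controls and had the smallest p. It was at 112, 113 and 115 CPM in control 1, 2 and 3, but at 68.2, 92.0 and 64.5 CPM in mutant 1, 2 and 3. All 3 mutant libraries lay below the controls, mutant 2 by the least. The log2 fold change was -0.60 ± 0.16 (SE; 95% interval -0.98 to -0.21), with adjusted p = 0.598 in edgeR, and -0.52 without mutant 1 (adjusted p = 0.439). Without control 1 it was -0.61. Counts per gene do not separate the SREBP-1a and SREBP-1c transcripts, which begin at different starts.

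Srebf2 (ENSMUSG00000022463), whose product favours genes of sterol synthesis and uptake, was more abundant and differed less. Its values were 346, 369 and 364 CPM in control 1, 2 and 3 and 295, 302 and 336 CPM in mutant 1, 2 and 3. The groups were separate by a narrow margin, since mutant 3 lay close to control 1. The log2 fold change was -0.21 ± 0.13 (SE; 95% interval -0.50 to 0.09), with adjusted p = 0.735 in edgeR, and -0.16 without mutant 1. Without control 1, the lowest control, it was -0.24. The log2 difference of Srebf2 over Srebf1 in a library was 1.63 to 1.71 in controls and 2.11, 1.72 and 2.38 in mutant 1, 2 and 3. All 3 mutant values lay above the controls, mutant 2 only just. The difference is formed from the values of both genes given above and is not independent of them.

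The escort and its anchors differed from each other. Scap (ENSMUSG00000032485) was at 70.2, 92.6 and 66.6 CPM in control libraries 1, 2 and 3, with 77.0, 71.1 and 78.2 CPM in mutant libraries 1, 2 and 3. The groups overlapped fully, the mutant values lying inside the control range, and the log2 fold change was -0.02 ± 0.16 (SE; 95% interval -0.39 to 0.35). Its sign turned under upper quartile scaling, where it was 0.02. Insig2 (ENSMUSG00000003721), the anchor that is not under SREBP control in most cells, was at 24.7, 27.0 and 25.9 CPM in the 3 controls and 23.1, 27.7 and 24.7 CPM in the 3 mutants. These groups overlapped as well, with a log2 fold change of -0.04 ± 0.14 (SE; 95% interval -0.37 to 0.29) and 0.03 without mutant 1.

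Insig1 (ENSMUSG00000045294), the anchor that SREBP itself induces, was at 204, 263 and 258 CPM in control libraries 1, 2 and 3, with 136, 188 and 192 CPM in mutant libraries 1, 2 and 3. Every mutant library lay below every control, with mutant 1 lowest and control 1 the lowest control. The log2 fold change was -0.49 ± 0.18 (SE; 95% interval -0.91 to -0.07), with adjusted p = 0.644 in edgeR. Without mutant 1 it was -0.33 (95% interval -0.67 to 0.01), and without control 1 it was -0.60. Within a library Insig1 exceeded Insig2 by 3.04 to 3.31 on the log2 CPM scale in controls and by 2.55, 2.76 and 2.95 in mutant 1, 2 and 3, without overlap. This difference is formed from the values of both genes given above and is not independent of them.

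Stard4 (ENSMUSG00000024378) encodes a soluble carrier that moves cholesterol between membranes. It was at 210, 231 and 244 CPM in control libraries 1, 2 and 3, with 125, 198 and 180 CPM in mutant libraries 1, 2 and 3. The groups did not overlap, but mutant 2 lay near control 1, and mutant 1 was far below the others. The log2 fold change was -0.44 ± 0.19 (SE; 95% interval -0.88 to -0.01), with adjusted p = 0.645 in edgeR. Without mutant 1 it was -0.26 (95% interval -0.55 to 0.03), and without control 1, the lowest control, it was -0.51.

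The efflux and receptor-degradation genes under LXR showed another pattern, in which the mutant libraries disagreed among themselves. Abca1 (ENSMUSG00000015243), which loads cholesterol onto lipid-poor apolipoprotein, was at 67.5, 56.1 and 87.4 CPM in control libraries 1, 2 and 3, with 118, 35.2 and 31.2 CPM in mutant libraries 1, 2 and 3. Mutant 1 was above and the other mutant libraries were below every control. Over all 6 libraries the log2 fold change was -0.20 ± 0.49 (SE; 95% interval -1.32 to 0.93; adjusted p = 0.92 in edgeR). Without mutant 1 the log2 fold change was -1.07 ± 0.20 (95% interval -1.52 to -0.62). Its adjusted p = 0.28 in edgeR was a value shared by 56 genes, and by p Abca1 ranked 39 in that fit, in which no gene passed. Over all 13 alternatives its adjusted p ranged from 0.28 to 1.00.

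Abcg1 (ENSMUSG00000024030), which exports cholesterol to lipoprotein particles, was at 54.5, 52.8 and 50.5 CPM in control libraries 1, 2 and 3, with 129, 55.9 and 18.2 CPM in mutant libraries 1, 2 and 3. The controls were nearly equal, with a highest value 1.08-fold the lowest, while mutant 1 was 2.44-fold and mutant 3 was 0.347-fold the control mean and mutant 2 lay just above the controls. Its log2 fold change was 0.36 ± 0.56 (SE; 95% interval -0.95 to 1.67; adjusted p = 0.875 in edgeR) and -0.50 without mutant 1. In limma-voom it was -0.05.

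Mylip (ENSMUSG00000038175) encodes a ubiquitin ligase, also called IDOL, that marks lipoprotein receptors for degradation. It was low, at 4.53, 6.09 and 5.40 CPM in control libraries 1, 2 and 3, with 12.4, 5.41 and 4.08 CPM in mutant libraries 1, 2 and 3. Mutant 1 was 2.33-fold the control mean, mutant 2 lay within the control range and mutant 3 below it. The log2 fold change was 0.45 ± 0.42 (SE; 95% interval -0.51 to 1.41; adjusted p = 0.797 in edgeR) and -0.16 without mutant 1. For Abca1, Abcg1 and Mylip alike, mutant 1 was the highest and mutant 3 the lowest of all 6 libraries, and the direction of the mean difference depended on which libraries were kept.

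**Figure D3:**
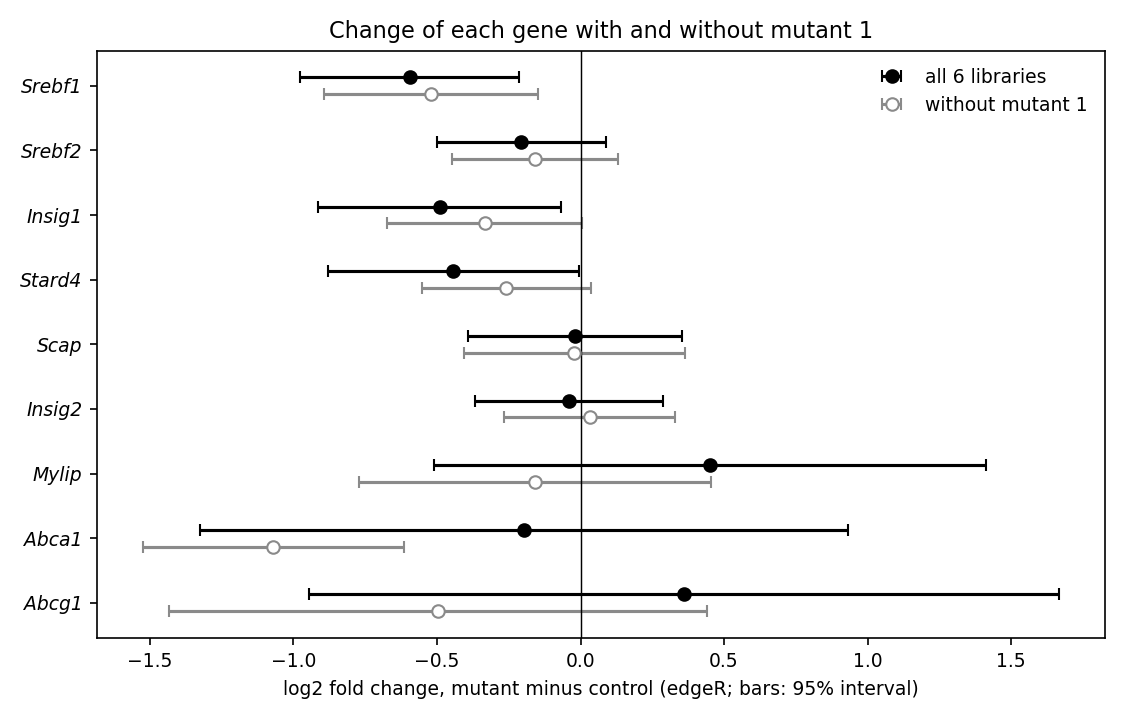
Log2 fold change of each gene, mutant minus control, with its 95% edgeR interval, for all 6 libraries (black) and without mutant 1 (open grey). The 4 genes at the top lie below 0 in both fits, Scap and Insig2 lie near 0, and Abcg1 and Mylip change side when mutant 1 is left out while Abca1 moves from -0.20 to -1.07.

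Side by side, the SREBP and LXR targets among the 9 genes differed most in mutant 1, where every SREBP target lay below and every LXR target above the controls. The mean level of Srebf2, Insig1 and Stard4 minus its control mean was -0.14, 0.06 and 0.07 (log2) in control 1, 2 and 3 and -0.66, -0.27 and -0.25 in mutant 1, 2 and 3. That of Abca1, Abcg1 and Mylip was -0.07, -0.03 and 0.10 in controls and 1.09, -0.29 and -1.02 in mutant 1, 2 and 3. The first set was below the control range in all 3 mutant libraries, and the second was above it in mutant 1 and below it in the rest. In mutant 2 the second mean rested on Abca1 alone, at -0.97, since Abcg1 was at 0.09, above the controls, and Mylip at 0.03, within them. The difference between the sets, LXR minus SREBP, was between -0.10 and 0.07 in controls and 1.75, -0.02 and -0.76 in mutant 1, 2 and 3. It overlapped between the groups, and no test was made of it because the genes were chosen with earlier results known. Median log2 fold changes were -0.44 for the SREBP set and 0.36 for the LXR set, against 0.02 for all genes tested, and -0.26 and -0.50 without mutant 1. Mutant 1 was also the library with the lowest activation and highest naive-state levels, whose part in the difference was not tested. In whole cultures, fewer cells of a type and less RNA per cell cannot be told apart.

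**Figure D4:**
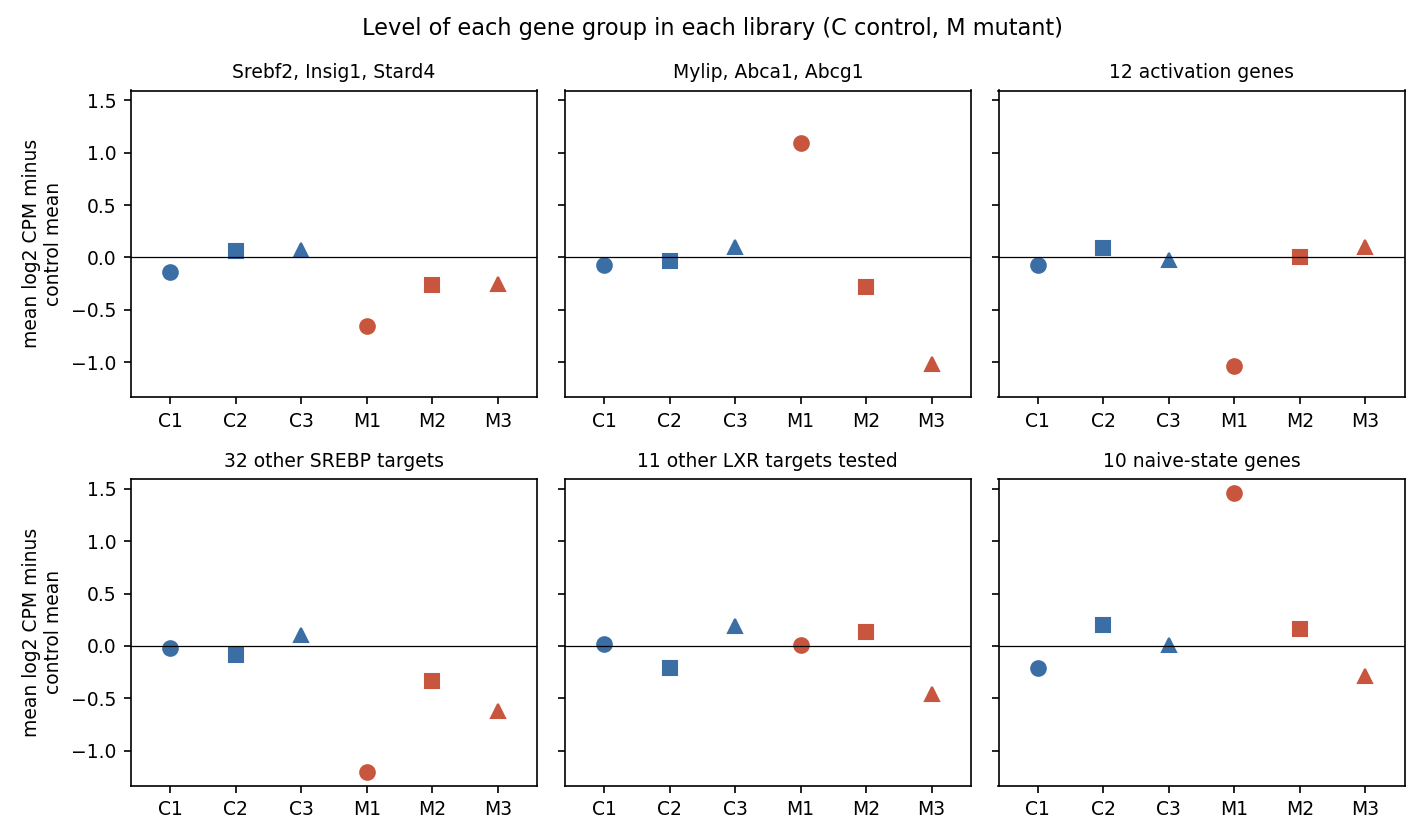
Mean log2 CPM of each gene group minus its control mean in each library (C1 to C3 control in blue, M1 to M3 mutant in red). Both SREBP groups on the left are below 0 in all 3 mutant libraries, Mylip, Abca1 and Abcg1 run from 1.09 in mutant 1 to -1.02 in mutant 3, and mutant 1 is the extreme library for the activation and naive-state genes on the right.

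Other SREBP targets, listed from knowledge of the pathway, were measured lower as a group. Of 32 genes, 30 had a lower mean in mutant cells, where 47.1% of all genes tested did, and 20 had all 3 mutant libraries below the control range (7.48% of all genes). The median log2 fold change was -0.55, and -0.34 without mutant 1, where 28 of 32 were lower (47.9% of all genes in that fit) and 22 lay below the controls without overlap (11.9%). None passed edgeR's test over all genes (smallest adjusted p 0.598). The 4 with the smallest p were Fads1, Mvd, Dhcr7 and Nsdhl, all separate between groups. Fads1, a fatty acid desaturase gene, was at 76.8, 76.3 and 85.3 CPM in the 3 controls and 35.9, 48.8 and 37.5 CPM in the 3 mutants. Mvd, which acts early in sterol synthesis, was at 36.5, 32.6 and 41.6 CPM in the 3 controls and 18.1, 25.6 and 19.8 CPM in the 3 mutants. Dhcr7, which makes cholesterol in the last step of one branch, was at 87.2, 87.7 and 103 CPM in the 3 controls and 36.4, 63.2 and 52.0 CPM in the 3 mutants. In each, mutant 1 was lowest and mutant 2 the highest mutant. Nsdhl, an enzyme of the late sterol pathway, was at 63.2, 56.5 and 77.9 CPM in the 3 controls and 33.6, 46.8 and 35.1 CPM in the 3 mutants. The list overlaps a sterol synthesis list already known to be lower in these libraries and is not independent of it.

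The genes that process or hold SREBP differed less in the median. Of 21, 12 had a lower and 9 a higher mean (median log2 fold change -0.09), where 47.1% of all genes were lower. In every mutant library 5 lay below the controls (7.48% of all genes) and 0 above them (6.6%). Without mutant 1, 14 were lower (47.9% of all genes) and 7 higher (median -0.06). In that fit 4 lay below the controls without overlap (11.9%) and 0 above (12.2%). The median was -0.02 without mutant 2. Paqr3, a Golgi protein that tethers SCAP, was at 6.30, 3.88 and 4.30 CPM in the 3 controls and 2.49, 2.55 and 2.72 CPM in the 3 mutants. Mbtps2, which encodes the Golgi site-2 protease that makes the final cut, was at 56.9, 47.7 and 52.7 CPM in the 3 controls and 37.8, 45.6 and 47.0 CPM in the 3 mutants. Erlin1, which takes part in sterol-dependent control at the endoplasmic reticulum, was at 24.0, 26.1 and 25.9 CPM against 13.9, 21.9 and 22.4 CPM. Tbl2 was at 57.0, 51.2 and 56.2 CPM in the 3 controls and 25.7, 38.8 and 43.4 CPM in the 3 mutants. Each of the 4 was separate between groups, and none passed edgeR's test (adjusted p from 0.629 for Paqr3 to 0.713 for Mbtps2).

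Sterol uptake genes pointed both ways. Of 13 tested genes of uptake and lysosomal release, 5 had a lower and 8 a higher mean, with a median log2 fold change of 0.05. A higher mean was found for 52.9% of all genes tested, and for 52.1% without mutant 1. Without mutant 1 the split turned to 8 lower and 5 higher, with a median of -0.08, and without mutant 2 the median was -0.02. Lrp8, a lipoprotein receptor gene, was at 73.6, 50.9 and 68.8 CPM in the 3 controls and 33.7, 36.5 and 48.4 CPM in the 3 mutants, and Scarb1, a receptor for high-density lipoprotein, at 60.1, 59.5 and 62.2 against 29.2, 42.8 and 45.2 CPM. Both were separate between groups, where 7.48% of all genes tested were separate in this direction. In the other direction 1 gene of the 13, not named here, was separate (6.6% of all genes). Vldlr was at 10.1, 0.64 and 6.31 CPM in the 3 controls and 0, 1.44 and 0.16 CPM in the 3 mutants, overlapping. None of the 13 passed edgeR's test.

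Among 22 tested genes of sterol transport and storage, 12 had a higher and 10 a lower mean (median log2 fold change 0.04). Over all genes tested, 52.9% had a higher mean, and 52.1% without mutant 1. Without mutant 1 there were 11 of each (median -0.0038), and without mutant 3 the median was 0.17. Of the 22, 1 lay below every control in all 3 mutant libraries (7.48% of all genes) and 2 above (6.6%). Without mutant 1, 3 lay below (11.9%) and 4 above (12.2%). Gramd1a and Gramd1b encode Aster proteins, which move cholesterol from the plasma membrane to the endoplasmic reticulum. Gramd1a was at 161, 210 and 176 CPM in the 3 controls and 247, 219 and 224 CPM in the 3 mutants, without overlap, and Gramd1b at 105, 112 and 107 against 108, 193 and 151 CPM, where mutant 1 lay within the control range. Soat2, an enzyme that esterifies cholesterol for storage, was at 5.69, 1.65 and 5.65 CPM in the 3 controls and 0.79, 1.50 and 1.06 CPM in the 3 mutants, separate but low. Stard10, a lipid transfer gene, was separate in the other direction at 2.09, 1.52 and 1.84 CPM in the 3 controls and 4.95, 3.37 and 2.61 CPM in the 3 mutants. None passed edgeR's test (smallest adjusted p 0.598).

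The LXR side gave no common direction. Of 17 other LXR targets 11 were tested, 7 with a higher and 4 with a lower mean, and the median log2 fold change was 0.01. The share of all genes tested with a higher mean was 52.9%, and 52.1% without mutant 1. Without mutant 1, 4 were higher and 7 lower (median -0.14), and leaving out each library in turn moved the median between -0.14 and 0.16. Smpdl3a, an LXR-induced phosphodiesterase gene, was at 7.23, 7.34 and 10.9 CPM in the 3 controls and 37.9, 10.0 and 5.30 CPM in the 3 mutants, again with mutant 1 highest and mutant 3 lowest. Lpcat3, which encodes a phospholipid-remodelling enzyme, was at 53.8, 48.0 and 56.6 CPM in the 3 controls and 30.4, 41.5 and 30.6 CPM in the 3 mutants (log2 fold change -0.63 ± 0.17, SE; adjusted p = 0.598 in edgeR). It was the only 1 of the 11 below every control in all 3 mutant libraries (7.48% of all genes), and 0 lay above (6.6%). Without mutant 1, 1 of the 11 lay below (11.9%) and 0 above (12.2%). Pnpla3, a lipase gene, was low, at 0.99, 0.74 and 1.27 CPM in the 3 controls and 0.28, 0.91 and 0.19 CPM in the 3 mutants. Rgs16, a regulator of G protein signalling, was at 51.7, 98.6 and 34.3 CPM in the 3 controls and 104, 70.8 and 86.0 CPM in the 3 mutants. Both overlapped. Nr1h2, which encodes LXRβ, was at 25.1, 21.7 and 22.1 CPM in the 3 controls and 31.6, 22.1 and 23.2 CPM in the 3 mutants, while Nr1h3, which encodes LXRα, did not exceed 0.716 CPM in any library (Nr1h3 was named after its values were seen). Ncor1, a corepressor that LXRs can recruit, was higher in every mutant library, at 417, 420 and 405 CPM in the 3 controls and 472, 454 and 432 CPM in the 3 mutants, a log2 fold change of 0.13 ± 0.12 (SE; adjusted p = 0.801 in edgeR). Cyp11a1, which starts steroid synthesis from cholesterol, was at 6.91, 4.69 and 4.21 CPM in the 3 controls and 3.45, 5.78 and 3.04 CPM in the 3 mutants, overlapping. Of 9 tested receptor, cofactor and ligand genes, 8 had a higher and 1 a lower mean (median 0.16), where 52.9% of all genes had a higher mean, and none passed. Without mutant 1 the split was 5 higher and 4 lower (median 0.09), where 52.1% of all genes were higher. Of the 9, 1 (Ncor1) lay above every control in all 3 mutant libraries (6.6% of all genes) and 0 below (7.48%). Without mutant 1, 1 lay above (12.2%) and 0 below (11.9%).

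Other transporters of the ABCA and ABCG families gave no common direction over all 6 libraries. Of 7 tested genes, 3 were higher and 4 lower in the mean (median log2 fold change -0.15). Lower means made up 47.1% of all genes tested, and 47.9% without mutant 1. Without mutant 1, 2 were higher and 5 lower (median -0.36), and the median was above 0 without mutant 3 (0.16), control 1 (0.02) or control 3 (0.05). Of the 7, 1 lay below every control in all 3 mutant libraries (7.48% of all genes) and 0 above (6.6%). Without mutant 1, 3 lay below (11.9%) and 0 above (12.2%). Abcg2, a multidrug transporter, was separate between groups at 16.6, 17.5 and 17.8 CPM in the 3 controls and 12.7, 12.3 and 11.5 CPM in the 3 mutants, and its 3 mutant values were close to each other. Abca7 was at 43.1, 42.1 and 41.3 CPM in the 3 controls and 81.7, 57.8 and 38.9 CPM in the 3 mutants, with the order of Abcg1 across the mutant libraries. Abca5 was at 6.07, 5.03 and 5.34 CPM in the 3 controls and 12.8, 5.07 and 6.19 CPM in the 3 mutants, and Abca3 at 82.2, 76.7 and 79.4 against 81.9, 60.1 and 62.8 CPM. None passed edgeR's test (smallest adjusted p 0.612, for Abcg2).

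**Figure D5:**
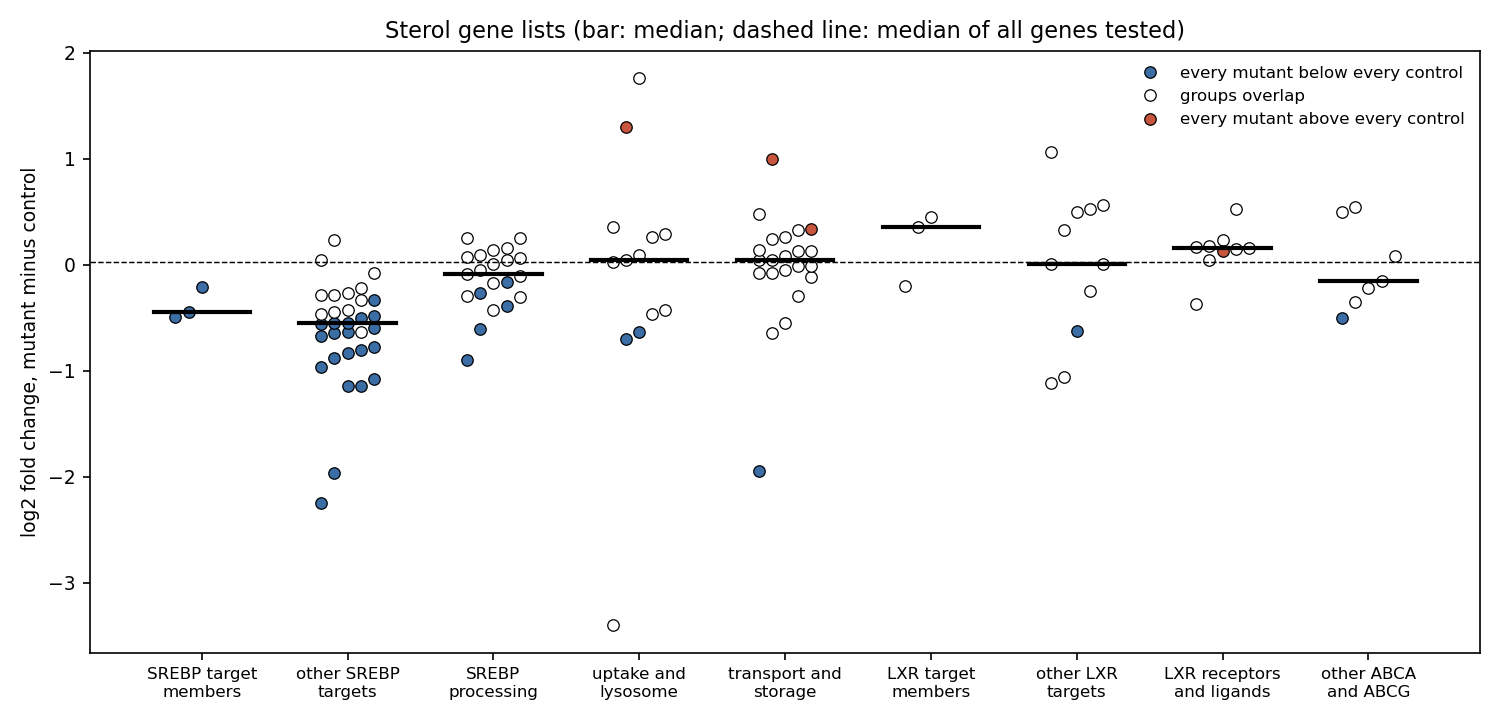
Log2 fold change of every tested gene of 9 sterol gene lists, mutant minus control, 1 point per gene, with the median of each list as a bar and the median of all genes tested as a dashed line. Filled points are genes whose groups do not overlap (blue lower, red higher in mutant), most of which are in the SREBP target list, where 20 of 32 genes are lower without overlap.

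Markers of other cells were read because macrophages and B cells can also express sterol efflux genes. T cell markers, 9 of 9 tested, summed to 1732 to 2383 CPM among controls and 1963 to 2767 CPM in mutant libraries. Of 12 macrophage and monocyte markers 10 were in the table and 4 passed the filter, and the 10 summed to 12.4 to 17.1 CPM among controls and 19.3, 11.1 and 21.2 CPM in mutant 1, 2 and 3. Most of this sum was Vcam1 (18.4 of 21.2 CPM in mutant 3), while Csf1r, Cd68 and Adgre1 were each at most 1.46 CPM in every library; these 4 were named after their values were seen. B cell markers, of which 7 of 8 passed the filter, were higher in mean in mutant cells in all 7 (52.9% of all genes tested). Of the 7, 2 (Cd79a and Blk) lay above every control in all 3 mutant libraries (6.6% of all genes) and 0 below (7.48%). Cd79a was at 0.93, 0.47 and 0.83 CPM in the 3 controls and 1.84, 5.15 and 2.20 CPM in the 3 mutants. Without mutant 1, all 8 were tested, and 6 lay above (12.2%) and 0 below (11.9%). Ms4a1 and Pax5 were at 7.68 and 11.5 CPM in mutant 2 and under 2 CPM elsewhere. The B cell sum, mostly Ighm, was 134 to 158 CPM among controls and 124, 227 and 150 CPM in mutant 1, 2 and 3. CD8 T cell markers summed to 40.4 CPM in control 1 and 5.81 to 17.3 CPM elsewhere. Of 5 neutrophil markers only 1 was in the table, at no more than 0.074 CPM, and 0 passed the filter, so neutrophils were hardly measured. Stroma and endothelium markers summed to 20.6 to 27.8 CPM among controls and 152, 48.5 and 32.3 CPM in mutant 1, 2 and 3. Nearly all of this sum was 1 gene, Pecam1, at 151 CPM in mutant 1, while Pdgfrb, the other gene tested, was lowest there at 0.20 CPM (both named after their values were seen). The sums of NK cell, dendritic cell and erythroid markers were each at most 22.4 CPM. No listed marker with a row in the table was at 0 in all 6 libraries. The part of these cells in the values of the 9 genes was not tested.

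The genes whose pattern over the 6 libraries was most like that of Insig1, by Pearson's correlation of log2 CPM among 12897 genes whose mean log2 CPM reached 1, were Parp2, Gm7832, BC055324, Gm20628 and Cenpq (r from 0.988 to 0.995). Those most like Abca1 were Tmem175, Tbce, Art4, Ppox and Gm15491 (r from 0.988 to 0.998). No gene of the sterol lists was among these 10. With 6 libraries and many genes such values are a description, with no test, and the libraries and their scaling are shared by all genes.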

How the data were processed

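RNA was sequenced from 6 libraries, made after ribosomal RNA removal per the labels' protocols. Per the submitters' processing notes, STAR 2.7.8a and Partek and the builds GRCm39 and mm39 were used, without roles or annotation. The authors deposited estimated counts per gene, not normalized, of which 57.8% were whole; they were rounded. The use of strand is not given, so overlapping and antisense genes cannot be told apart. Rows without a symbol (863) or repeating the symbol of a row with more counts (32) were named by ID. Replicates of a group differed by more than sampling noise (chi-square over degrees of freedom, 18.7 to 177).

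In R 4.3.3, edgeR 4.0.16 was run with filterByExpr (minimum count 10), TMM scaling, robust dispersions and the quasi-likelihood test of mutant against control on all 6 samples, with Benjamini-Hochberg adjustment over 18323 genes, a threshold of 0.05 and two-sided p-values. SEs were derived from the log2 fold change and F. Log2 CPM used a prior count of 2. Precision is limited by 3 libraries a group rather than by depth. The alternatives were DESeq2 1.42.0, limma-voom (limma 3.58.1), other scalings and filters, a replicate block and leaving out each library. The procedure was tested on simulated data.

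The 9 genes and the lists were chosen with earlier results of these data known. Named are the 9 genes, Sf3b1, up to 4 genes of each list with the smallest p, and the 5 genes most like Insig1 and Abca1; exceptions are stated, and some genes the rule picks are not reported here. Motifs were chosen after looking at matches, and counts without mutant 1 after seeing the data. Exon lengths came from GENCODE M21 on GRCm38 by gene ID.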

Additional observations from a re-analysis of the deposited data

How the results depend on the processing

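Across 13 alternatives, 105 of 117 log2 fold changes of the 9 genes kept their direction and none passed the threshold; 12 changed sign, all of genes whose groups overlap. Srebf1, Srebf2, Insig1 and Stard4 kept theirs in all 13. Leaving out 1 library at a time gave -0.75 to -0.50 for Srebf1, -0.27 to -0.16 for Srebf2, -0.60 to -0.33 for Insig1 and -0.56 to -0.26 for Stard4. It gave -0.095 to 0.14 for Scap, -0.092 to 0.032 for Insig2, -0.16 to 0.73 for Mylip, -1.07 to 0.12 for Abca1 and -0.50 to 0.80 for Abcg1. The sign of Scap turned under upper quartile scaling (0.022), with a filter of 1 CPM in 3 samples (0.016), without control 2 (0.14) and without mutant 2 (0.042). Without mutant 1 the signs of Insig2 (0.032), Mylip (-0.16) and Abcg1 (-0.50) turned. That of Abca1 turned without control 3 (0.0076), mutant 2 (0.10) or mutant 3 (0.12). Abcg1 was -0.053 in limma-voom and -0.036 with the replicate number as a block. The cause was not tested. The count of genes past the threshold was 0 in edgeR and limma-voom under every setting, with between 618 (without control 3) and 2426 (without mutant 3) genes at an unadjusted p under 0.05 (866 without control 1), and 100 in DESeq2, which had 1618.

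Replicate numbers are shared between groups, but same-numbered libraries did not deviate together (r = -0.05, -0.07 and -0.03), and the labels name no shared source. The replicate block called 0 genes, and the number with an unadjusted p under 0.05 was 991 instead of 1396. Depth does not limit the 9 genes, of which the lowest, Mylip, had 150 to 440 counts a library.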
